A study of Mus musculus with 13 samples.

Results

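Atf4, Atf5, Ddit3, Trib3, Asns, Hspa5, Xbp1, Dnajb9, Sdf2l1 and Herpud1, which were chosen by name as genes of endoplasmic reticulum (ER) stress and the integrated stress response, were followed in mouse liver tumours after Yap was lowered by siRNA. All 10 are among the 23361 gene symbols in the deposited tables, and all 10 passed the filter on low counts that left 15132 genes. Between siYap and siLuc tumours, 2 of the 10 fell, Hspa5 and Atf4, and none rose. Of all genes tested, 14.8% were called lower and 16.0% higher in siYap, so the lower count is near that background. Hspa5, the main chaperone of the ER lumen, stood at 638 ± 143 FPKM (fragments scaled for transcript length and sequencing depth, SD, n = 8) in siLuc and 357 ± 88.8 FPKM (n = 5) in siYap. Atf4, the central transcription factor of the integrated stress response, stood at 73.2 ± 17.5 and 48.3 ± 8.23 FPKM. The spread between siLuc tumours was wide for Atf5, Trib3 and Asns, of which none passed the test.

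All animals were Mst1-/- with floxed alleles of Mst2 (Mst2Flox/Flox) on a mixed C57BL/6 and 129Sv background, and Adeno-Cre, an adenovirus carrying Cre recombinase, was injected to delete Mst2 in the liver. Loss of these Hippo pathway kinases leads to hepatocellular carcinoma, and tumour growth was followed by ultrasound. The animals were then randomized to intravenous lipid nanoparticles for 9 days, with siRNA against luciferase (siLuc, 8 libraries) or against Yap (siYap, 5 libraries), so the control tumours also lack both kinases and also received nanoparticles. Neither age nor the animal behind each library is given in the labels, so a p-value covers the spread between libraries, part of which may be technical. Yap1, the siRNA target, was at 2.22 to 4.17 FPKM in the siYap libraries and at 8.10 to 11.9 FPKM in the siLuc libraries. Libraries held 23637021 to 37043914 fragments on genes. siYap replicates 1 and 3 had the 2 lowest totals and the most fragments on Rn45s, the ribosomal RNA precursor (1160 and 1882 CPM, counts scaled to equal library totals, against 479 to 812 in the other 11 libraries). The file names carry a code that starts with the digit 6, 7 or 8, and a number that some libraries share. The numbers were 89, 92, 94, 96 and 11 in siLuc and 90, 99 and 1 in siYap. The labels explain neither, and libraries that share a number may share an animal. Unless counts summed per number are named, the tests and the n of each group count every library as separate.

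When unfolded protein builds up in the ER, the sensors Perk, Ire1 and Atf6 start the unfolded protein response. Perk and 3 related kinases phosphorylate the initiation factor eIF2alpha, which lowers translation in general but raises that of Atf4. Atf4 in turn induces Ddit3 (Chop), Atf5, Trib3 and amino acid genes such as Asns. Ire1 splices the Xbp1 transcript into the form that encodes an active factor, and Xbp1 and Atf6 induce chaperones and the machinery of ER-associated degradation (ERAD). Hepatocytes secrete large amounts of plasma protein and carry an extensive ER. Atf4 and Xbp1 are regulated in large part at translation and splicing, and the gene-level values here measure neither.

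Exact matches to a full motif, longer than CCACG alone, were found upstream of 3 members. The 250 bases before the annotated start (RefSeq, GRCm38.p6, the same build as mm10) were found for all 10 members and searched on both strands for 5 motifs. These were the ER stress response element ERSE (CCAAT, then any 9 bases, then CCACG), ERSE-II (ATTGG, any base, CCACG), the unfolded protein response element TGACGTGG, the C/EBP-ATF composite TGATGNAA and the half-site CCACG, which is also the end of the first 2. ERSE was found in the Hspa5 window only, and in 37 of 32536 promoter windows of this length (0.114%). ERSE-II was found in the Herpud1 window only, against 10 windows overall (0.0307%). The C/EBP-ATF composite was found in the windows of Asns and Herpud1, against 1105 windows overall (3.4%). TGACGTGG was in none of the members' windows and in 0.569% of all. CCACG alone was in the windows of 7 members and in 28.6% of all. A match is a description of the letters and not a measured binding site. The search allowed no mismatch and stopped at 250 bases, so it cannot show that the other members lack such elements. The 3 windows with a full element are shown 5′ to 3′ in the direction of the gene, with all matches in capitals, for Hspa5 at chr2:34771840-34772089 (plus strand), Herpud1 at chr8:94386179-94386428 (plus strand) and Asns at chr6:7693210-7693459 (minus strand).
Hspa5: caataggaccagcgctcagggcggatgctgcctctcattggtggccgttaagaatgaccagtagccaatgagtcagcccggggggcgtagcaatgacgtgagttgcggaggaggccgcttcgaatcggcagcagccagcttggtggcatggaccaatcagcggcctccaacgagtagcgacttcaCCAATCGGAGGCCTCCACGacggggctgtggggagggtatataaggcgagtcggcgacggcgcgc
Herpud1: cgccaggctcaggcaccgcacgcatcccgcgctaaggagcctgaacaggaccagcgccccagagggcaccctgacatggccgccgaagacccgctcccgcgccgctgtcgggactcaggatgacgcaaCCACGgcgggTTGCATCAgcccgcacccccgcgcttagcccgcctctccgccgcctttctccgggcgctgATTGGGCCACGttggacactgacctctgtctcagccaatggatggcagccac
Asns: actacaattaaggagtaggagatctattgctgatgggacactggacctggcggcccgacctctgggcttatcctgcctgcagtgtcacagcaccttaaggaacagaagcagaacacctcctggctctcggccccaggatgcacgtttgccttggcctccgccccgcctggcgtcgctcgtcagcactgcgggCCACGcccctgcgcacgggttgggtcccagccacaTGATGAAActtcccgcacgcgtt
In Hspa5 the long capital run is the ERSE, 65 to 47 bases before the start. In Herpud1 the ERSE-II lies 52 to 42 bases and the composite, on the minus strand, 112 to 105 bases before the start. The bases just after this start were not found in GENCODE transcripts of Herpud1, so these distances hold for the RefSeq start only. The starts of Trib3 and Xbp1 also lacked such a match, while those of Hspa5 and Asns had one. In Asns the composite lies 23 to 16 bases before the start. Of these 3 genes, only Hspa5 was called between the groups, and differences between the genes were not tested.

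Tests were edgeR's quasi-likelihood F test of siYap against siLuc over all 13 libraries, with Benjamini-Hochberg adjustment over the 15132 genes tested and calls at an adjusted p under 0.05. Of all genes tested, 30.8% were called, 16.0% higher and 14.8% lower in siYap. Among the members, 2 of 10 were lower and 0 of 10 higher, which is close to that background for the lower calls. At an unadjusted p under 0.05, 3 members were lower and 0 higher in edgeR. DESeq2 and limma on log2(FPKM + 1) also called 2 lower and 0 higher. The median log2 fold change of the members was -0.17, against -0.0026 over all genes tested, with 3 members above 0 and 7 below. No member was higher in every siYap library than in every siLuc library, which held for 5.57% of all genes.

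**Figure D1:**
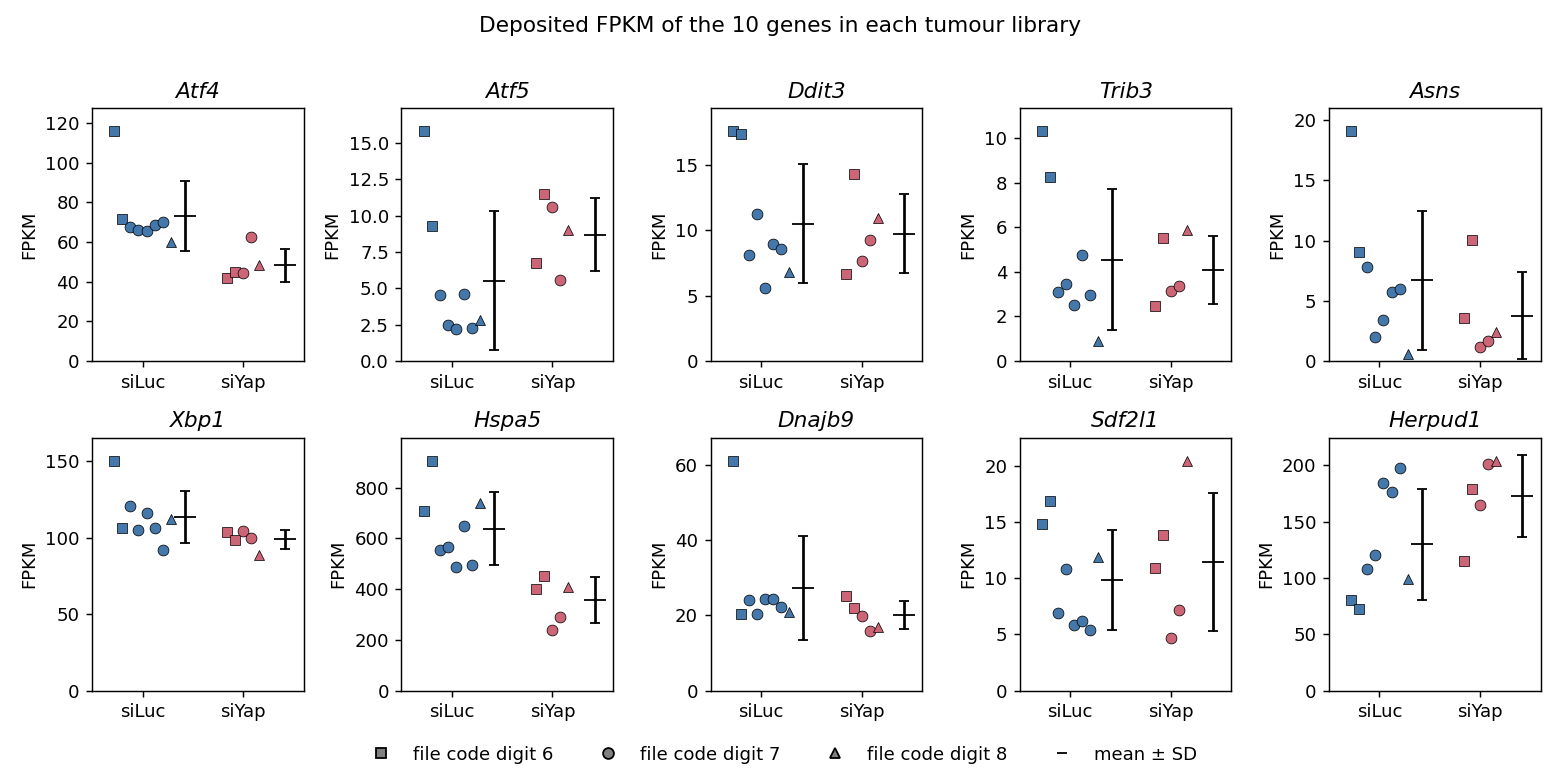
FPKM (y axis, from 0) of each of the 10 genes in the 8 siLuc (blue) and 5 siYap (red) libraries, with marker shape for the first digit of the file code and black bars for mean ± SD. Hspa5 is the only gene whose groups do not overlap, and siLuc replicates 1 and 2, the blue squares, are the highest of the siLuc libraries for Atf5, Ddit3, Trib3 and Asns.

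Atf4 (chromosome 15, 80255184 to 80257545, plus strand) encodes the factor that carries the integrated stress response to the nucleus. Its level ran from 60.2 to 116 FPKM in siLuc, with a median of 68.1, and was 41.7, 44.9, 44.2, 62.4 and 48.2 FPKM in siYap replicates 1 to 5. Of the siLuc libraries, 7 of 8 lay above the highest siYap library, and the groups overlapped only through siYap replicate 4 and siLuc replicate 8 (60.2 FPKM). Xbp1, which was not called, had the same count of 7. The share of all genes with so little overlap was not computed. For Atf4, siLuc replicate 1 stood far above the other siLuc libraries. On the log2 scale Atf4 changed by -0.59 ± 0.15 (SE; edgeR adjusted p = 0.00800). Over all 1287 ways to divide the libraries, the exact permutation p for mean log2(FPKM + 1), two-sided, was 0.00155, or 0.0122 adjusted over all genes tested, of which 27.1% were called this way. Within the file code digits 6, 7 and 8 the difference of mean log2 FPKM was -1.07, -0.36 and -0.32. Digit 8 holds only 1 library of each group. The call ended without siYap replicates 1 and 3 together (log2 fold change -0.47, adjusted p = 0.0729), the libraries with the highest Rn45s, an alternative chosen after seeing the data. It held in edgeR's test when any single library was left out.

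Atf5 (chromosome 7, 44812256 to 44816658, minus strand), a related factor that Atf4 induces, ran from 2.18 to 15.8 FPKM in siLuc (median 3.70). It was 6.76, 11.5, 10.6, 5.54 and 8.99 FPKM in siYap. All 5 siYap libraries lay above the siLuc median, but siLuc replicate 1 (15.8) lay above all of them and siLuc replicate 2 (9.30) among them, so the groups overlapped. The log2 fold change of 0.67 ± 0.46 did not pass the test (edgeR adjusted p = 0.289). Without siLuc replicate 1 it was 1.13 and passed (edgeR adjusted p = 0.0221). Within digit 7, the 5 siLuc libraries were at 2.18 to 4.61 FPKM and the 2 siYap libraries, which share a file-name number, at 5.54 to 10.6 FPKM. The share of all genes that separate in so small a subset was not computed, so no weight is put on this. The difference of mean log2 FPKM in digit 7 was 1.33. It was -0.46 in digit 6 and 1.66 in digit 8, and whether the digits differ was not tested. Atf5 shares 82 exonic bases with Nup62 and Il4i1 on the opposite strand in the GENCODE annotation, so some fragments may belong to those genes.

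Ddit3 (chromosome 10, 127290793 to 127296291, plus strand), the pro-apoptotic factor Chop, was at 5.60 to 17.5 FPKM in siLuc (median 8.72) and at 6.62, 14.2, 7.63, 9.26 and 10.9 FPKM in siYap. The siYap values lay inside the siLuc range. Its log2 fold change of -0.12 ± 0.30 (edgeR adjusted p = 0.784) turned to 0.082 without siLuc replicate 1. Within digits 6, 7 and 8 the difference of mean log2 FPKM was -0.84, 0.022 and 0.69. Ddit3 shares 68 exonic bases with Mars on the opposite strand.

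Trib3 (chromosome 2, 152337425 to 152344060, minus strand) encodes a pseudokinase that Atf4 and Chop induce and that restrains both Atf4 and Akt. It ran from 0.913 to 10.3 FPKM in siLuc, an 11.3-fold range with a median of 3.28. In siYap it was 2.45, 5.52, 3.16, 3.36 and 5.86 FPKM, all within the siLuc range. Its fold change was -0.16 ± 0.46 (log2, edgeR adjusted p = 0.811), and 0.18 without siLuc replicate 1.

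Asns (chromosome 6, 7675165 to 7693209, minus strand), which makes asparagine and is a standard readout of Atf4 activity, had the widest fold range between siLuc libraries of the 10 members. It ran from 0.613 FPKM in siLuc replicate 8 to 19.1 FPKM in siLuc replicate 1, a 31.1-fold range with a median of 5.86. In siYap it was 3.56, 10.03, 1.15, 1.67 and 2.40 FPKM. siYap replicate 2 stood above the other siYap libraries, and 4 of the 5 lay below the siLuc median, within the siLuc range. Asns changed by a log2 fold of -0.82 ± 0.69 (edgeR adjusted p = 0.386), -0.36 without siLuc replicate 1 and -1.58 without siYap replicate 2, neither of them called. Within digits 6, 7 and 8 the difference of mean log2 FPKM was -1.13, -1.70 and 1.97.

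Hspa5 (chromosome 2, 34772090 to 34776529, plus strand) encodes BiP, which folds client proteins and holds the stress sensors inactive. It ranked 126th of the 15132 tested genes by mean FPKM, with 18064 to 90301 fragments per library. Its siLuc level ran from 487 to 905 FPKM with a median of 609, and the siYap libraries held 401, 449.8, 237, 292 and 406 FPKM. Every siYap library lay below every siLuc library, which held for 5.66% of all genes tested and for 1 of the 10 members. Its log2 fold change was -0.84 ± 0.20 (edgeR adjusted p = 0.00617), and the siYap mean was 0.560 times the siLuc mean. The two-sided exact permutation test gave p = 0.000777, the smallest it can give, or 0.00806 adjusted over all genes. Within digits 6, 7 and 8 the difference of mean log2 FPKM was -0.92, -1.06 and -0.86. Hspa5 was called in edgeR's test without siYap replicates 1 and 3 as well (log2 fold change -0.74, adjusted p = 0.0320).

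Xbp1 (chromosome 11, 5520641 to 5525993, plus strand), the transcription factor activated by Ire1 splicing, varied little. It was at 91.7 to 150.4 FPKM in siLuc (median 109.5) and at 104, 98.5, 104, 99.9 and 89.0 FPKM in siYap. All 5 siYap libraries were under the siLuc median, and 7 of 8 siLuc libraries lay above the highest siYap library. The log2 fold change of -0.18 ± 0.12 was not called (edgeR adjusted p = 0.274). The count covers spliced and unspliced Xbp1 together.

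Dnajb9 (chromosome 12, 44205897 to 44210068, minus strand) encodes ERdj4, a BiP co-chaperone that helps hold Ire1 inactive. It stood at 20.3 to 24.4 FPKM in 7 siLuc libraries and at 61.1 FPKM in siLuc replicate 1. In siYap it was 25.2, 21.9, 19.97, 16.0 and 17.0 FPKM, with 4 of 5 libraries below the siLuc median of 23.2. The log2 fold change of -0.43 ± 0.17 did not pass the test (edgeR adjusted p = 0.0717), passed with the file code digit as a term (adjusted p = 0.0489), and was -0.28 without siLuc replicate 1 (adjusted p = 0.0739).

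Sdf2l1 (chromosome 16, 17130138 to 17132383, minus strand), an ER lumen protein that works in the BiP cycle, was at 5.37 to 16.8 FPKM in siLuc (median 8.88). In siYap it was 10.9, 13.8, 4.64, 7.20 and 20.4 FPKM, and both the lowest and the highest of all 13 libraries were siYap libraries. Sdf2l1 changed by 0.24 ± 0.36 (log2, edgeR adjusted p = 0.637), and by -0.056 without siYap replicate 5.

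Herpud1 (chromosome 8, 94386429 to 94395371, plus strand), a membrane protein of the ERAD complex, had the opposite pattern between siLuc libraries. It was lowest in siLuc replicates 2 (72.3 FPKM) and 1 (80.1) and reached 198 FPKM in siLuc replicate 7, with a median of 114. In siYap it was 115, 179, 164, 201 and 204 FPKM, so that all 5 lay above the siLuc median. Herpud1 changed by 0.43 ± 0.24 on the log2 scale (edgeR adjusted p = 0.185). It was 0.63 with the file code digit as a term, and then passed (adjusted p = 0.0322). Within digits 6, 7 and 8 the difference of mean log2 FPKM was 0.91, 0.25 and 1.04.

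**Figure D2:**
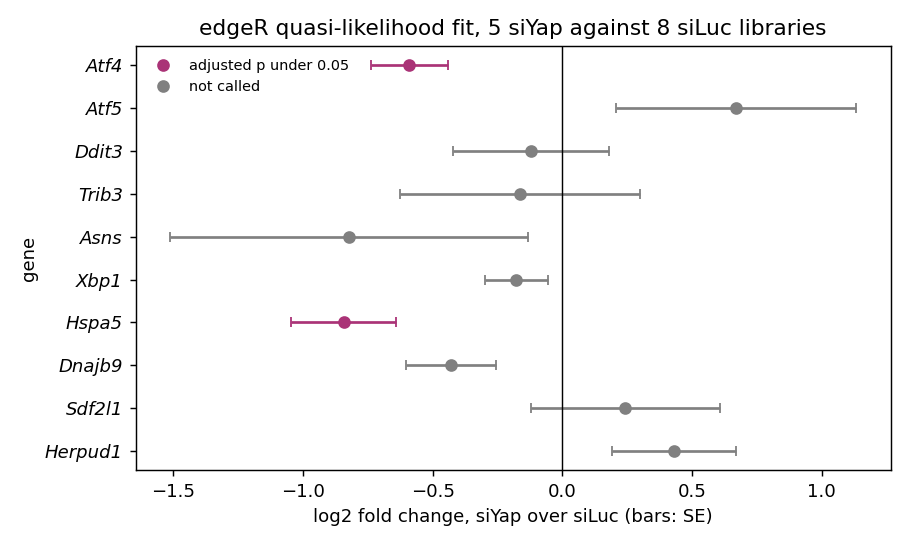
Log2 fold change of siYap over siLuc (x axis, points) with its standard error (bars) for the 10 genes, from edgeR's fit over 13 libraries. Atf4 at -0.59 and Hspa5 at -0.84 are the 2 genes called, and Atf5 and Asns have wide bars.

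By mean FPKM, which is scaled for transcript length, the order in siLuc was Hspa5 (638), Herpud1 (129.7), Xbp1 (114), Atf4 (73.2), Dnajb9 (27.2), Ddit3 (10.5), Sdf2l1 (9.82), Asns (6.71), Atf5 (5.51) and Trib3 (4.53). Hspa5 lay above Herpud1 in its whole siLuc range, and Dnajb9 (lowest library 20.3 FPKM) above Ddit3 (highest 17.5 FPKM). All other neighbours in this order overlapped in their siLuc ranges. In siYap the first 5 places were the same, and there the ranges of Herpud1 (115 to 204 FPKM), Xbp1 (89.0 to 104) and Atf4 (41.7 to 62.4) did not overlap.

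Some of the members varied between libraries of a group in related ways. After each group's mean was subtracted, Pearson's r over the 13 libraries ran from -0.651 (Atf5 with Herpud1) to 0.885 (Hspa5 with Sdf2l1). It was 0.85 for Ddit3 with Trib3 but 0.0094 for Atf4 with Hspa5. siLuc replicates 1 and 2, which share the digit 6 and the number 89 in their file names, held the 2 highest siLuc levels of Atf5, Ddit3, Trib3, Asns and Sdf2l1 and the 2 lowest of Herpud1. siLuc replicate 1 was also the highest for Atf4, Xbp1 and Dnajb9, and siLuc replicate 2 for Hspa5. siLuc replicate 8 was lowest for Atf4, Trib3 and Asns. Among the siYap libraries, replicate 2 was the highest for Atf5, Ddit3, Asns and Hspa5, and replicate 3 the lowest for Asns, Hspa5 and Sdf2l1. The plot of levels relative to the siLuc mean shows these libraries as columns.

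**Figure D3:**
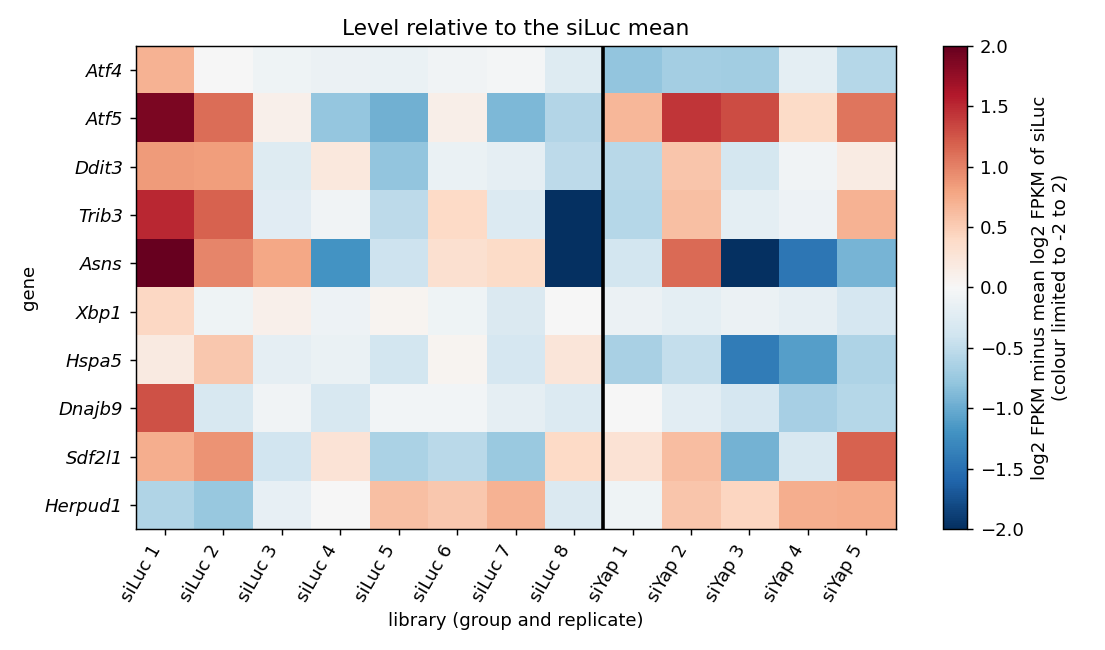
Log2 FPKM of each gene (rows) in each library (columns, siLuc left and siYap right of the black line) minus the mean log2 FPKM of siLuc, with colour limited to -2 to 2. siLuc replicates 1 and 2 are red for Atf5, Trib3 and Asns, and the Hspa5 and Atf4 rows are blue in all 5 siYap columns.

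Likeness to a member was sought among 7479 tested genes with a mean FPKM of 5 or more, with names of the Gm and Rik kind passed over. After each group's mean was subtracted, the genes most like Hspa5 over the 13 libraries were Manf (Pearson's r = 0.956), Dnajc18 (0.953) and D17Wsu104e (0.927). Those most like Ddit3 were Eef1b2 (0.906), Degs1 (0.901) and Rpl23a (0.882), and those most like Atf4 were Eif4b (0.920), Eef1d (0.911) and Eif3h (0.902). These values describe likeness in these libraries, which share their depth and makeup, and are the highest of many.

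Other genes of the pathway were described by 9 lists, of which 161 of 164 genes were tested. Of these 161, 29 were higher (18.0%) and 20 lower (12.4%) in siYap, beside 16.0% and 14.8% of all genes tested. The count of each list below is to be read beside the same 16.0% higher and 14.8% lower, and no list was tested as a set. Without siYap replicate 3 the lower count was 12. With counts summed per file-name number, in case these mark animals, 10 of the 49 calls ended, those of Ern1, Eif2ak2, Slc7a1, Syvn1, Os9, Sec63, Ssr2, Sec13, Tram1 and Dnaja3. Without siYap replicates 1 and 3, 22 of the 49 ended. Of the genes described with their levels here, these were Mbtps1 (edgeR adjusted p = 0.0514), Tram1 (0.0793) and Bag3 (0.242). Calls named below without levels that also ended included those of Sesn2, Tars, Yars, Hspa13, Dnajc10 and Derl2 (edgeR adjusted p = 0.0510 to 0.121). The median log2 fold change of the 161 genes was -0.10.

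Of 16 tested genes for stress sensors and for the kinases and phosphatases of eIF2alpha, 4 rose (25%) and 1 fell (6.25%). No called change was above 0.63 on the log2 scale. Ppp1r15b, the constitutive partner of the eIF2alpha phosphatase, rose from 21.9 ± 1.96 to 32.6 ± 5.81 FPKM (log2 fold change 0.59 ± 0.12, edgeR adjusted p = 0.00182). Eif2ak1, the heme-regulated eIF2alpha kinase, rose from 12.7 ± 0.824 to 16.9 ± 2.24 FPKM (edgeR adjusted p = 0.00437). Mbtps1, the protease that makes the first cut in Atf6, rose from 9.81 ± 1.6 to 13.9 ± 1.3 FPKM (edgeR adjusted p = 0.00647). The other calls, named after their values were seen, were a higher Ern1, which encodes Ire1, and a lower Eif2ak2, the kinase Pkr. The call of Ern1 (edgeR adjusted p = 0.0366) ended without any of siLuc replicates 2, 3, 4, 6, 7 and 8 or siYap replicates 1 to 3 (0.05004 to 0.160). That of Eif2ak2 (0.0271) ended without siYap replicate 3 (0.0791) or 4 (0.0623). Eif2ak3, which encodes Perk, and Atf6, also chosen after their values were seen, did not pass the test (edgeR adjusted p = 0.640 and 0.547).

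Among 18 genes listed as Atf4 and Chop stress regulators, 4 rose (22.2%) and 1 fell (5.56%), beside 16.0% and 14.8% of all genes tested. Bcl2l11, the pro-apoptotic protein Bim, rose from 3.32 ± 0.380 to 7.94 ± 3.04 FPKM (log2 fold change 1.28 ± 0.19, edgeR adjusted p = 0.000240). Vldlr, the very low density lipoprotein receptor, rose from 1.54 ± 1.28 to 29.8 ± 23.2 FPKM (edgeR adjusted p = 0.000365), and Cebpb, a partner of Atf4 and Chop on DNA, from 8.86 ± 3.62 to 16.8 ± 4.89 FPKM (edgeR adjusted p = 0.00394). Sesn2 was also called higher and Stc2 lower, both named after their values were seen. The call of Stc2 (edgeR adjusted p = 0.0268) ended without siYap replicate 3, 4 or 5 (0.0741, 0.0619 and 0.0539). In the list of amino acid enzymes and transporters, 7 of 16 rose (43.8%) and 1 fell (6.25%). Of the 7, the calls of Slc7a1, Slc38a2 and Gpt2, named after their values were seen, each ended without 1 library. These were siYap replicate 1 or 3 for Slc7a1 (edgeR adjusted p = 0.0845 and 0.0724), siLuc replicate 3 or siYap replicate 3, 4 or 5 for Slc38a2 (0.0517 to 0.0824) and siYap replicate 5 for Gpt2 (0.0679). For Slc7a5, the large neutral amino acid transporter, the rise was from 0.190 ± 0.042 to 2.01 ± 0.890 FPKM (log2 fold change 3.42 ± 0.26, edgeR adjusted p = 1.51e-06). Its siLuc level was at most 0.255 FPKM, and its log2 fold change was 1.30 to 3.55 over 24 alternatives. Slc7a1 was under 1 FPKM in every library. Slc1a5, a glutamine transporter, rose from 0.961 ± 0.336 to 10.5 ± 5.58 FPKM (edgeR adjusted p = 1.90e-05). Psph, the last enzyme of serine synthesis, fell from 8.53 ± 3.01 to 3.59 ± 0.674 FPKM (edgeR adjusted p = 0.00155).

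Among 21 cytosolic tRNA charging genes, 3 rose and 3 fell (14.3% each). Aars, which charges alanine tRNA, rose from 15.1 ± 2.96 to 65.3 ± 18.6 FPKM (log2 fold change 2.12 ± 0.18, edgeR adjusted p = 4.60e-06). Iars, the isoleucine enzyme, rose from 12.5 ± 2.44 to 19.7 ± 2.93 FPKM (edgeR adjusted p = 0.00520), while Wars, the tryptophan enzyme, fell from 11.3 ± 1.54 to 7.72 ± 1.49 FPKM (edgeR adjusted p = 0.00590). Yars was also called higher and Tars and Dars lower, named after their values were seen. The call of Dars (edgeR adjusted p = 0.0243) ended without siYap replicate 1 (0.0621) or 3 (0.0723).

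Among the ER chaperones and disulfide isomerases other than the members, 5 of 25 fell (20%) and 1 rose (4%). Their median log2 fold change was -0.29. Fkbp11, a prolyl isomerase of secretory cells, fell from 167 ± 19.6 to 32.2 ± 11.7 FPKM (log2 fold change -2.34 ± 0.22, edgeR adjusted p = 6.29e-06). Pdia5, a disulfide isomerase, fell from 34.7 ± 6.61 to 19.8 ± 5.20 FPKM (edgeR adjusted p = 0.00155), and Sdf2, the paralog of Sdf2l1, from 36.8 ± 3.60 to 23.9 ± 4.98 FPKM (edgeR adjusted p = 0.00423). Hspa13 and Dnajc10 were also called lower and Txndc11 higher, named after their values were seen. The call of Txndc11 (edgeR adjusted p = 0.0251) ended without siYap replicate 1 (0.0831) or 3 (0.0848). The abundant chaperone Hsp90b1 (Grp94), which is often induced together with Hspa5, was at 445 ± 111 and 404 ± 75.7 FPKM and was not called (log2 fold change -0.14 ± 0.19, edgeR adjusted p = 0.607). Nor did the isomerase Pdia4 (-0.21 ± 0.20, edgeR adjusted p = 0.440). Both were chosen for mention after their values were seen.

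ERAD genes other than Herpud1 gave 6 rises (28.6%) and 3 falls (14.3%) among 21. Nploc4, a cofactor of the Vcp segregase, rose from 8.41 ± 1.1 to 13.04 ± 2.63 FPKM (edgeR adjusted p = 0.00125). Herpud2, the paralog of Herpud1, rose from 9.88 ± 1.63 to 14.8 ± 1.33 FPKM (log2 fold change 0.57 ± 0.12, edgeR adjusted p = 0.00281), and Edem1, a lectin that hands misfolded glycoproteins to ERAD, from 26.7 ± 3.49 to 38.7 ± 6.61 FPKM (edgeR adjusted p = 0.00410). The call of Syvn1 (edgeR adjusted p = 0.0472), the ERAD ubiquitin ligase Hrd1, ended without any of siLuc replicates 1 and 4 to 8 or siYap replicates 1 and 3 (0.0628 to 0.182). Derl2, Os9 and Ubxn4 were called lower, and these 4 were named after their values were seen. The call of Os9 (edgeR adjusted p = 0.0269) ended without siYap replicate 1, 3 or 4 (0.0510 to 0.0693) and that of Ubxn4 (0.0270) without siYap replicate 1 (0.0685) or 3 (0.0723).

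Of 20 genes of ER translocation and export, 2 rose (10%) and 5 fell (25%). Arfgap3, a regulator of Golgi to ER traffic, fell from 13.5 ± 1.93 to 6.27 ± 0.685 FPKM (log2 fold change -1.08 ± 0.14, edgeR adjusted p = 6.02e-05), and Tram1, a protein of the translocon, from 128 ± 37.1 to 84.2 ± 23.9 FPKM (edgeR adjusted p = 0.0155, or 0.0701 with counts summed per file-name number). Sec31a, a subunit of the export coat, rose from 20.05 ± 2.26 to 31.1 ± 8.23 FPKM (edgeR adjusted p = 0.00331). Ssr2, Sec13 and Sec23b were also called lower and Sec63 higher, named after their values were seen. Each of these 4 calls ended when any of several libraries was left out. For Sec13 (edgeR adjusted p = 0.0374) they were siLuc replicates 2, 3, 6, 7 and 8 and siYap replicates 1 to 3 (0.0509 to 0.104). For Sec23b (0.0428) they were siLuc replicates 1, 2, 3, 4, 6 and 8 and siYap replicates 1, 3 and 4 (0.0522 to 0.118). For Ssr2 (0.0382) they were siLuc replicates 2, 3, 4 and 6 and siYap replicates 1 to 3 (0.0532 to 0.105). For Sec63 (0.0355) they were siLuc replicates 2, 3 and 5 and siYap replicates 2, 4 and 5 (0.0574 to 0.101).

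In the cytosolic heat shock list, 1 of 14 genes rose and 1 fell (7.14% each). Cryab, a small heat shock protein, fell from 5.26 ± 4.08 to 1.26 ± 0.659 FPKM (edgeR adjusted p = 0.00773). Bag3, an Hsp70 cofactor, rose from 4.42 ± 0.773 to 6.40 ± 1.52 FPKM (edgeR adjusted p = 0.0295), a call that ended without siLuc replicate 8 or siYap replicate 1, 3 or 5 (0.0513 to 0.0894). Hspa8, the cytosolic relative of Hspa5, was not called (log2 fold change -0.49 ± 0.20, edgeR adjusted p = 0.0673), and passed without siYap replicate 2 (0.0472) or 4 (0.0429). Among 10 mitochondrial chaperones and proteases, Dnaja3 rose in edgeR's test. The list had 1 gene higher by DESeq2 and 0 by limma. None fell by edgeR, DESeq2 or limma, and 1 was lower at an unadjusted p under 0.05. The call of Dnaja3 (edgeR adjusted p = 0.0316) ended without siLuc replicate 3, 4 or 5 or siYap replicate 2, 4 or 5 (0.0527 to 0.0899). Clpx and Hspe1 did not pass (edgeR adjusted p = 0.0783 and 0.165).

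**Figure D4:**
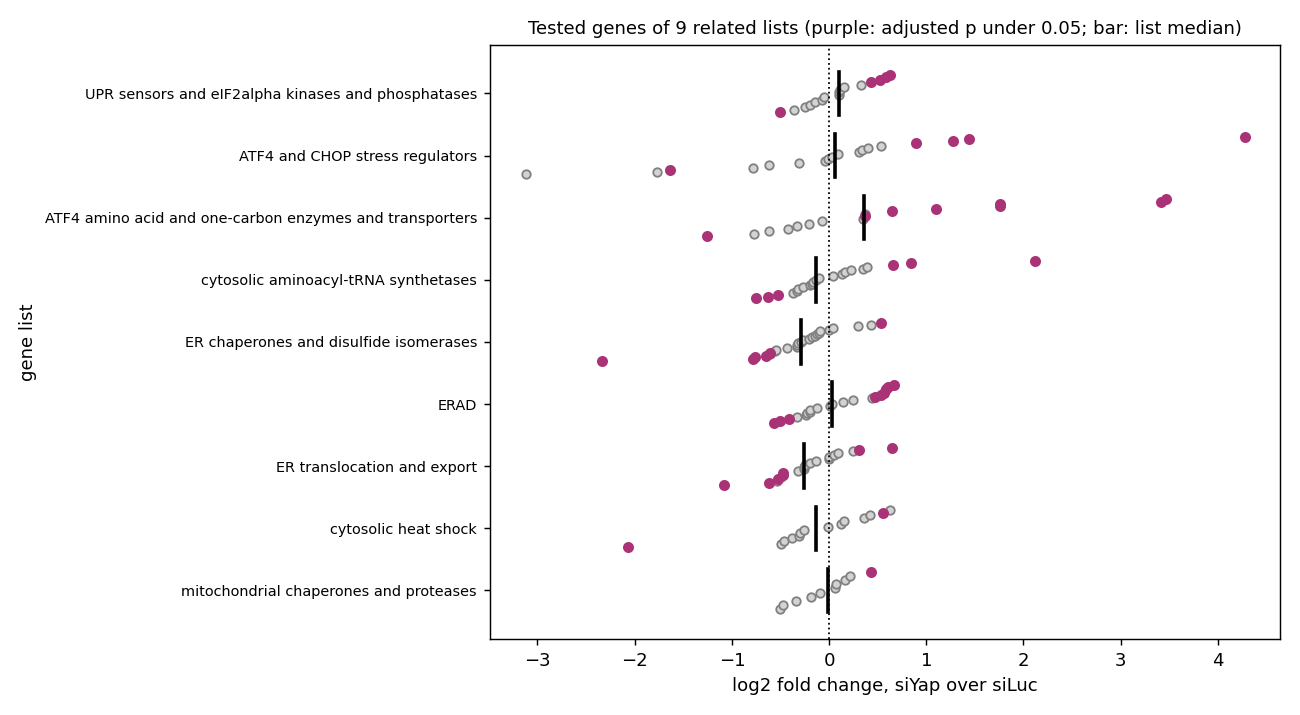
Log2 fold change of siYap over siLuc (x axis) for the tested genes of 9 lists (rows), each point 1 gene, purple where the adjusted p is under 0.05 and grey otherwise, with a black bar at each list's median and a dotted line at the median of all genes tested. The ER chaperone list lies to the left with a median of -0.29 and Fkbp11 at -2.34, and the amino acid list to the right with a median of 0.36.

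The RNA came from whole tumours, and markers of several cell types moved with treatment. In bulk RNA, fewer cells of a type and less RNA per cell cannot be told apart. The marker counts stand beside 16.0% called higher and 14.8% lower of all genes tested. All 10 hepatocyte markers were detected, and their summed level was 18005 to 29222 FPKM in siLuc and 13960 to 22851 FPKM in siYap, with 2 of 10 called higher and 1 lower. Of 8 cholangiocyte markers, 4 fell and none rose (0 also by DESeq2, by limma and at an unadjusted p under 0.05), and their sum was 1953 to 5098 FPKM in siLuc and 170.5 to 1151 FPKM in siYap. Of 7 macrophage markers, 4 fell and none rose (0 by DESeq2 and limma, 1 at an unadjusted p under 0.05), with sums of 561 to 1227 and 245 to 525.8 FPKM. All 5 tested neutrophil markers rose, with sums of 34.7 to 204 and 166 to 1264 FPKM. Endothelial markers rose in 3 of 7 and stellate and fibroblast markers in 2 of 8. Plasma cells, which need Xbp1 for secretion, showed no called marker. Of 5 tested, none was called by edgeR, DESeq2 or limma or at an unadjusted p under 0.05, and the sums were 16.4 to 176 FPKM in siLuc and 36.1 to 109 FPKM in siYap, with Tnfrsf17 under 1 FPKM in every library. Of 8 tested B and T cell markers, 1 fell, and the sums were 3.72 to 22.02 and 4.48 to 10.9 FPKM. Pancreatic acinar markers Cpa1, Pnlip, Prss1 and Amy2a5 were listed at 0 in all 13 libraries, and only Cela1 of this list was tested. The part of these cell types in the lower Hspa5 and Atf4 was not tested.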

How the data were processed

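RNA of 13 tumour samples was sequenced from ScriptSeq Complete Gold libraries, per the labels' protocols. The submitters' processing notes list mm10 together with TopHat2 2.0.8, Trimmomatic 0.30, Cuffdiff 2.1.1 and Cufflinks. For annotation, strand setting and multiply matching reads, nothing is given in the sources used here. The authors deposited, for each library, raw fragments per gene, which are estimated counts (97.6% to 98.0% within 1e-06 of a whole number), and FPKM values scaled by Cuffdiff, per the file headers. A series-wide table was not used. Alb, Apob and Trf, marked as too deep in every library, were left out.

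Counts were rounded and tested with edgeR 4.0.16 in R 4.3.3 (TMM, filterByExpr, robust glmQLFit, no covariates), which was tested on simulated data. Other fits used DESeq2 1.42.0 and limma 3.58.1, the latter on log2(FPKM + 1) or log2(FPKM + 0.1) where 5 or more libraries reached 1 FPKM. Standard errors were log2 fold changes divided by the square root of F. Libraries of a group all differed beyond sampling noise (chi-square at least 34.8 times its degrees of freedom). The rule for named genes took Yap1, the 10 members, the 3 of smallest p per companion list, 3 most like each of Atf4, Ddit3 and Hspa5, and the listed markers. Others were named after their values were seen. Members and lists were chosen with earlier results of these data known. Alternatives changed the scaling, the filter, the threshold, the tool or the libraries used, or added the replicate number or file code digit as a term.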

Additional observations from a re-analysis of the deposited data

Results flagged for a closer look

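Within a group of libraries, 4 single values stood apart, by the gap to the nearest other library relative to the range of the group (above 0.526 for 8 libraries or 0.710 for 5). Chance would flag about 1 in 20 groups if values were normally distributed and groups independent. The 20 groups of a gene examined were in FPKM, not log2, and share their libraries, so that rate may not hold. siLuc replicate 1 held Atf4 at 115.7 FPKM, against 71.6 FPKM in the next library. It also held Dnajb9 at 61.1 FPKM, against 24.4 FPKM in the next, and Asns at 19.1 FPKM, against 9.02 FPKM. siYap replicate 2 held Asns at 10.03 FPKM, against 3.56 FPKM in the next siYap library.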

How the results depend on the processing

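The fall of Hspa5 was called under all 24 alternatives (log2 fold change -0.99 to -0.72, adjusted p 0.000238 to 0.0320). That of Atf4 was called under 22 of 24 and ended with the replicate block (-0.65, adjusted p = 0.0597) and without siYap replicates 1 and 3 (-0.47, 0.0729). Asns and Xbp1 were called under none. With the replicate block, 2325 genes were called against 4668, 1 member and 7 companion genes lower, and 16 companion genes higher. The replicate numbers do not pair the libraries (correlation of same-number deviations -0.12 to 0.127, over 0.1 in 2 of 5 pairs, and 2 of 5 siLuc libraries correlated best with their own number). With the file code digit as a term, 5077 genes were called, 1 member higher (Herpud1) and 3 lower (Dnajb9 besides Hspa5 and Atf4), and 29 companion genes higher and 30 lower. Without siYap replicates 1 and 3, 2984 genes were called, 1 member and 7 companion genes lower. At an adjusted p under 0.01, 2362 genes were called and 7 companion genes were lower. Leaving out each library in turn gave 3325 to 4633 genes, 0 to 1 member higher (Atf5, without siLuc replicate 1), 2 lower in each case, 24 to 33 companion genes higher and 12 to 24 lower (12 without siYap replicate 3). Signs of genes that were not called turned for Sdf2l1 (-0.030 with the replicate block, -0.091 with the digit, and -0.056 to 0.45 leaving out each library, the former without siYap replicate 5), for Ddit3 (-0.29 to 0.082 leaving out each library, the latter without siLuc replicate 1, and 0.066 without siYap replicates 1 and 3) and for Trib3 (0.11 in counts summed per file-name number, -0.33 to 0.18 leaving out each library, the latter without siLuc replicate 1, 0.057 without siYap replicates 1 and 3, 0.019 and 0.075 in limma on log2(FPKM + 1) and log2(FPKM + 0.1)). The cause of these changes was not tested. Asns had as few as 47 fragments in a library and Trib3 75, so their lowest values are the least precise.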
